A study of Mus musculus with 9 samples.

Results

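The left-end and right-end Sleeping Beauty (SB) libraries of Lazy Piggy mouse SHH medulloblastomas were compared within each tumour. A library was taken where the authors' sample sheet gave the tumour as TAM+ or TAM- with sample type PT, and each animal's IRL library, read here as the left SB end, was set against its IRR library, read as the right end. This gave 240 of the 832 libraries in the deposited table, from 119 animals with both ends. All animals had the genotype lazy_piggy and a medulloblastoma, and 72 were treated with tamoxifen (TAM+) and 47 were not (TAM-). The sheet listed a median of 49 tamoxifen days (4 to 249 in the 71 TAM+ animals with 1 listed value) and 0 days for TAM-. The sheet's chromosome column, taken here as the chromosome of the transposon donor array, gave chromosome 10 for 90 animals (53 TAM+, 37 TAM-) and chromosome 7 for 29 (19 TAM+, 10 TAM-). The sources used here do not give the promoters that drive the transposases, the background alleles or the animals' ages. DNA libraries hold no expression, so the tumour type could not be checked against marker genes.

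Sleeping Beauty is a cut-and-paste transposon. Its transposase binds inverted repeats at both ends of the element and moves it to a TA dinucleotide, which is copied in the process, so host DNA flanks the insertion on either side. A library from the left end reads 1 flank of an insertion and a library from the right end reads the other, so an intact element can be seen from both. In Lazy Piggy the SB element also carries piggyBac (PB) ends, and tamoxifen serves to switch on PB transposase. Libraries called JX were amplified across the boundary of the SB and PB parts, and libraries called PB from the PB ends. In bulk DNA, a smaller share of a site can mean fewer cells with the insertion or fewer reads per copy, and these cannot be told apart.

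Values are raw counts per insertion position. Positions within 10 bp were merged into a site, and the site's share is its percent of all counts of that library. A site was called at an end where it reached both 10 counts and 1% of that library's highest site. Left-end totals had a median of 1668361 counts (145506 to 3340869) and right-end totals 1582157 (64860 to 3954862). The mean difference within animals, 35599 counts, did not pass (two-sided paired permutation test, p = 0.647), but its SD was 840766. In TAM+ 44 the left library held 1435205 counts and the right 64860, and in TAM+ 66 they held 190753 and 2933888. The median totals of the other libraries were 231347 (left JX), 129694 (right JX), 165022 (left PB) and 30660 (right PB). The 9 sequencing lanes are the deposited samples, the animal is the replicate, and 7 animals were sequenced in 2 lanes. TAM+ 61 joins libraries of 2 ID spellings in lanes 1 and 6, which may be 2 animals.

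Some libraries stood apart. In lane 1, left and right positions of the same insertion were often listed 117 bp apart: of 88 pairs of called positions within 150 bp, 38 lay at exactly 117 bp, in 9 of the 11 animals with such pairs, and 34 at 0 bp. In lanes 2 to 9, 251 of 254 such pairs lay at 0 bp and none at 117 bp. The offset ran both ways (19 pairs each). Where both positions of an offset pair lay in or near a gene, the listed orientation relative to that gene was the same in 32 of 33 pairs. The largest was at Dhx40, a putative RNA helicase, in animal TAM+ 8, with 32.5% of left counts at chr11:86592612 and 19.8% of right counts at chr11:86592729 (mm9). Others were at 1700080N15Rik in TAM+ 37 (24% and 11.9%) and at Pdpk1, the kinase that activates AKT, in TAM+ 16 (3.17% and 5.58%). Such pairs count as 2 sites with 1 end each in the values below unless pairing within 150 bp is named.

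**Figure D1:**
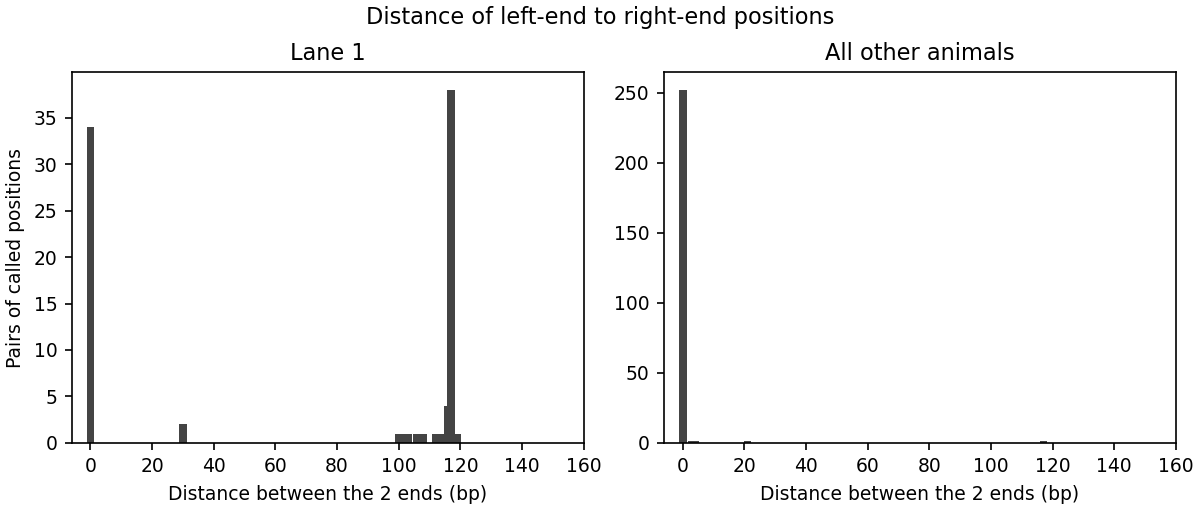
Distance in bp (x axis) between a left-end and a right-end called position of the same animal, with the number of pairs (y axis, with separate scales), in animals of lane 1 and in all other animals. Lane 1 has a bar at 0 bp and a taller one at 117 bp (38 pairs), and the other animals have nearly all pairs at 0 bp.

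Pairs of libraries were checked against their animal labels by the summed overlap of shares at called sites, with positions spread over animals left out. A position is called spread where at least 3 animals held counts and no animal held over 50% of them. The animal's own right library had the largest overlap in 90 of 119 animals, no right library overlapped in 18, another animal's overlapped more in 10 and another's equalled it in the remaining animal, TAM- 12. The largest of these were the left library of TAM+ 2, with 8.45% overlap to its own right library and 20% to that of TAM+ 18, and the left library of TAM+ 72, with 0 to its own and 9.2% to TAM+ 22. In the other 8 the overlap with another animal was at most 2.27%. Overlap with the animal's own right library was often small, with a median of 5.73%. It was over 10% in 46 animals and 0 in 24. The largest overlap with another animal had a median of 0, so a small overlap was often enough to rank first. Of 4861 called sites at positions that were not spread, 170 lay where another animal held a higher share, and in 131 of these the animals shared a lane.

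Few sites were called from both ends, and nearly all of the large ones carried at least some counts at the other end. Of 5329 called sites, 440 (8.26%) were called from both, 2998 (56.3%) were called from 1 end with counts below the call at the other, and 1891 (35.5%) had no count at the other end. Per animal, 15.6% ± 13.3 (SD, n = 119) of called sites were called from both ends, from 0% in 16 animals to 100% in TAM+ 19, whose only called site was the same from either end. The share with low counts at the other end was 74.7% ± 17.7, and the share with none was 9.67% ± 17.3 with a median of 0%, since 62 animals had no such site. With spread positions left out, 281 of 4861 sites were called from both ends, a mean of 12.5% ± 13.9 per animal. Pairing positions within 150 bp gave 16.9% ± 13.2 overall and moved lane 1 from 7.38% ± 7.08 to 15.5% ± 8.95 (n = 12).

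**Figure D2:**
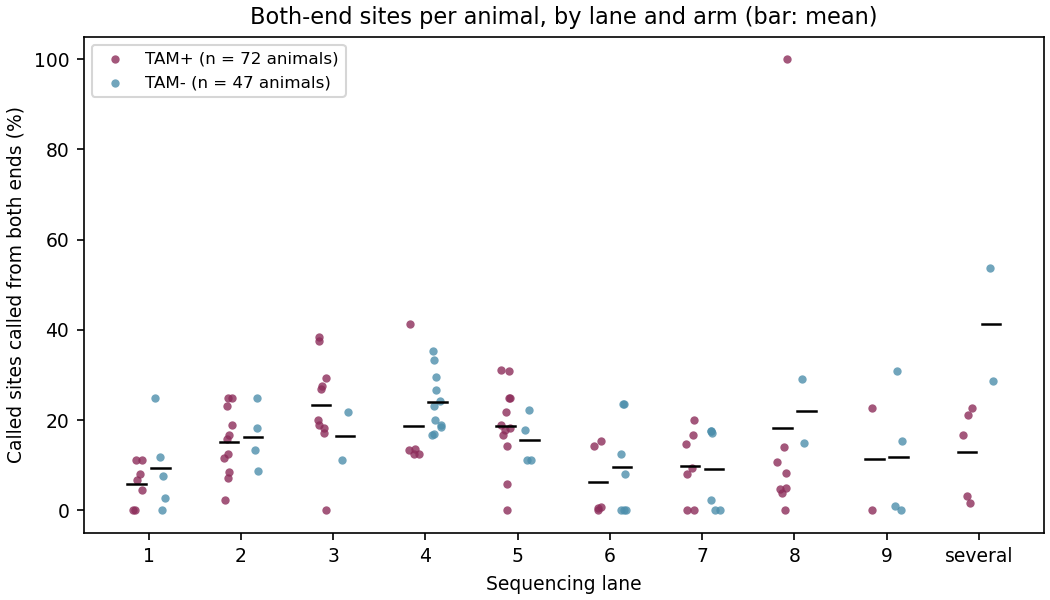
Percent of an animal's called sites that were called from both SB ends (y axis), 1 point per animal, by sequencing lane (x axis, with animals of several lanes at the right) and arm, where bars are means. Lane 1 lies low (mean 7.38%), 1 animal of lane 8 is at 100%, and the arms overlap in each lane that holds both.

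The highest site differed between the ends in most animals. The same site was highest at both ends in 9 of 119 animals. The left end's highest site was called at the right end in 44 animals, and the right end's highest was called at the left in 48. A left library's highest site held a median of 0.0751% of right counts, and a right library's highest site a median of 0.107% of left counts. These highest sites had counts at the other end, except in 1 animal at the right. Whether such counts come from the same insertion was not tested. Among sites with at least 10% of left counts, 87 of 284 were called at the right end and the other 197 had low right counts. Among sites with at least 10% of right counts, 108 of 288 were called at the left end, 178 had low left counts and 2 had none. Below 1% of left counts, 675 of 1515 sites had no right count.

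The 10 sites with the highest mean share among those called from both ends covered a wide range of agreement. In TAM+ 19 a site in intron 10 of Lrp1, a large endocytic lipoprotein receptor, at chr10:127030270 held 92.4% of left and 93.6% of right counts. A site in intron 14 of Ano1, a calcium-activated chloride channel, at chr7:151803434 held 76.8% and 57.9% in TAM- 15. A site in exon 8 of Prickle2, a planar polarity gene, at chr6:92325552 held 44.2% and 75.4% in TAM- 11. Each was the highest site of its tumour at both ends.

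Among the same 10 was a site in intron 1 of Alx4, a homeobox transcription factor (TAM- 33, 33.9% left and 61.7% right). Others lay in intron 2 of the cadherin Cdh7 (TAM+ 24, 34.1% and 42.8%) and exon 11 of the kinase Map3k1 (TAM- 13, 49.5% and 25.9%). A site at chr3:126902054 with no listed gene held 27.4% and 48% in TAM+ 34. In 3 of the 10 the ends were far apart. The site in intron 17 of Utp6, a ribosome biogenesis factor, held 0.81% of left and 93.5% of right counts in TAM- 34. In intron 3 of the hyaluronidase gene Hyal5 the shares were 0.99% and 91% in TAM+ 57, and in intron 13 of the nuclear import gene Ipo11 they were 79.1% and 0.407% in TAM- 23. At Hyal5 and Ipo11 the orientation listed for the 2 ends was opposed, and at the other 7 sites with a listed gene it was the same.

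The listed orientation agreed between the ends more often where the shares were balanced. The authors' table gives each position an orientation relative to its gene, SAME or OPPOSITE, and both flanks of 1 insertion are taken here to carry the same entry. With spread positions left out, 221 of 231 both-end sites with a listed gene had the same orientation at both ends (95.7%, 95% Wilson interval 92.2% to 97.6%, counting error only). Among sites called from the left end with low right counts it was 48.9% of 932, and among sites called from the right end with low left counts 34.5% of 1271. Sorted by the smaller share as a percent of the larger, the same orientation was listed at 10.3% of 894 sites with a ratio under 0.1%, at 41.1% of 735 from 0.1% to 1%, at 81.9% of 343 from 1% to 10%, and at 95.2% of 462 at 10% or more. With lane 1 left out these values were 10.2%, 39.4%, 84.6% and 96.8%.

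Per animal the orientation agreed at 93.9% ± 21.9 of both-end sites and at 45.7% ± 23.3 of the sites called from 1 end with low counts at the other (n = 91), higher at both-end sites in 81 animals and lower in 5 (two-sided paired permutation test, p = 1e-05, the smallest it can give). The difference was above 0 in all 9 lanes. This comparison was chosen after the values were seen. What gives the counts of opposed orientation at the other end was not tested.

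**Figure D3:**
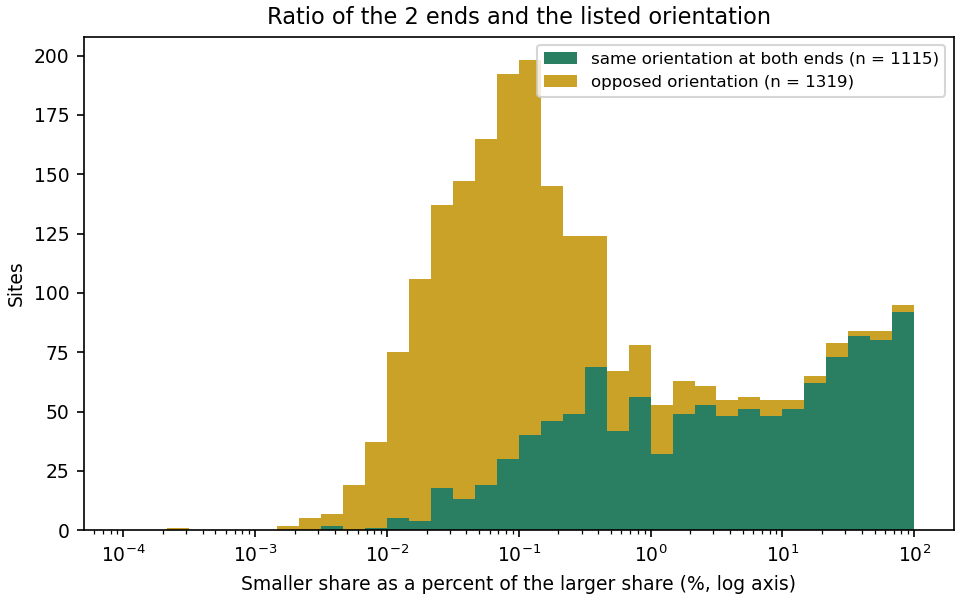
Number of sites (y axis) by the smaller share as a percent of the larger (x axis, log scale), for sites with counts at both ends and a listed gene, spread positions left out. Green sites have the same listed orientation at both ends (1115) and yellow ones opposed orientations (1319), and opposed sites gather below 1% while sites above 10% are nearly all green.

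Shares of the same site often differed between the ends. Among the 281 both-end sites at positions that were not spread, the log2 ratio of left to right share had a median of -0.29 and an SD of 2.60, and 125 sites (44.5%) lay within 2-fold while 51 (18.1%) differed by at least 10-fold. The left share was higher at 124 of them and the right at 157. Over these sites log10 shares had Pearson's r = 0.496 and Spearman's rho = 0.47, a description only, as sites of an animal share its libraries and their depth. Over all sites with counts at both ends the median rho within an animal was -0.272 (100 animals with at least 10 such sites, from -0.685 to 0.269), below 0 in 86. Since a site enters when it is called at either end, a site high at 1 end and low at the other pulls this value down. Both-end sites held 25.1% ± 23.5 of left counts and 30.2% ± 26.2 of right counts per animal (n = 119, p = 0.0736, adjusted p = 0.221 over 9 paired comparisons).

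**Figure D4:**
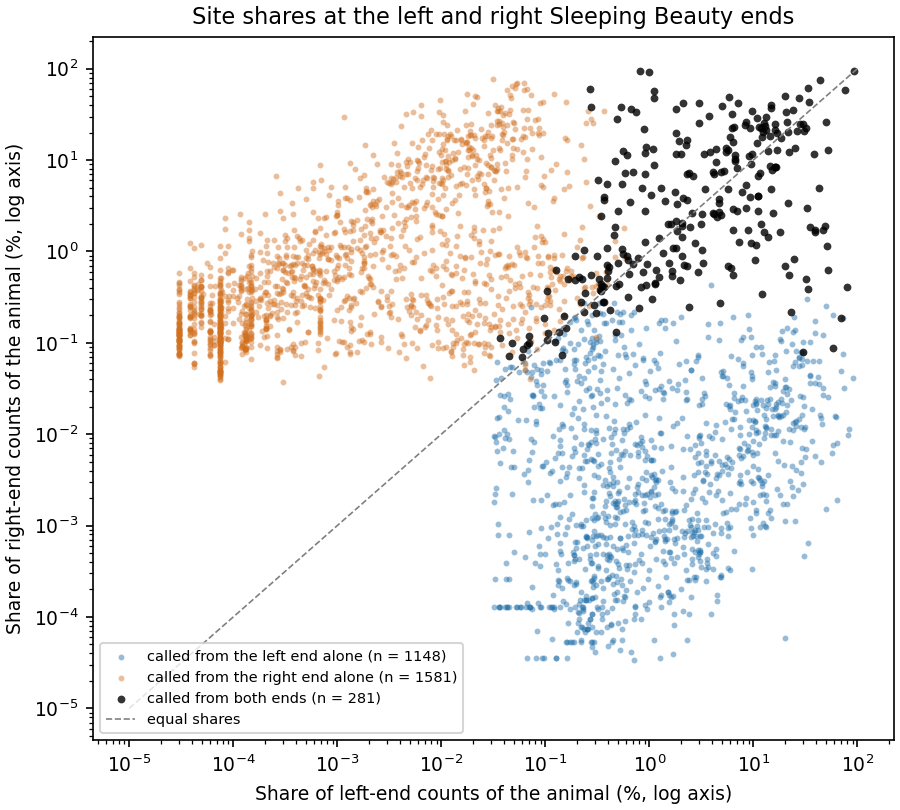
Share of an animal's left-end counts (x axis) against its share of right-end counts (y axis), both in percent on log scales, 1 point per site with counts at both ends, spread positions left out. The 281 sites called from both ends (black) scatter about the dashed line of equal shares, and sites called from 1 end form 2 clouds away from it.

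The number of called sites did not differ between the ends beyond the spread of animals. Left libraries had 19.6 ± 39.9 called sites (median 10, 1 to 340) and right libraries 28.9 ± 72.9 (median 11, 1 to 582). The mean difference of -9.30 sites was within the spread (n = 119, paired permutation test, p = 0.218), left was higher in 57 animals and right in 51, and 5 of 9 lanes had more left sites on average. Leaving out 1 lane at a time gave -14.1 (without lane 1, permutation p = 0.0567) to -5.04 (without lane 3). The mean depended on 10 animals with over 100 called sites. Without them the left end had 14 ± 12.7 sites and the right 12.3 ± 9.44 (n = 109, paired permutation test, p = 0.118). Without the 10 animals whose left library overlapped more with another animal's right library, the difference was -14.1 (paired permutation test, p = 0.0467). The highest site held 36.3% ± 19.7 of left and 35.2% ± 18.6 of right counts, a difference of 1.06 percentage points (n = 119, p = 0.604). Positions listed before any call were more at the left end, with 6836 ± 4292 against 6298 ± 3850 per animal. That difference passed (n = 119, paired permutation test, adjusted p = 9e-05 over the 9 paired comparisons). Left was higher in 73 animals and right in 46.

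Sites with no count at the other end came mainly from few animals. The 10 animals with over 100 called sites held 1691 of the 1891, and 2848 of all 5329 called sites (53.4%). In TAM+ 59, 363 of 584 sites were seen only from the right end and 1 only from the left. In TAM+ 67, with 2375858 left and 128523 right counts, 247 of 398 were seen only from the right. In TAM+ 3, 222 of 435 sites were seen only from the left and 34 only from the right. TAM+ 46, with 145506 left and 150493 right counts, had 183 left-only and 112 right-only sites among 354.

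Sites called at the left end had right counts at 91.4% ± 15.1, and sites called at the right end had left counts at 94.5% ± 15.3. The difference of -3.13 percentage points had p = 0.0377 (n = 119, two-sided paired permutation test) but an adjusted p of 0.170 over the 9 paired comparisons, with the right end higher in 44 animals, the left in 12 and 63 equal. In the same permutation test it was -2.57 (p = 0.154) with the deeper library thinned to the shallower and -1.92 (p = 0.181) without lane 1. It was -12.8 (p = 1e-05) with sites called at 0.1% of the highest, -0.748 (p = 0.478) at 5%, and -4.94 (p = 1e-05) without the 10 animals of over 100 sites in that permutation test. An exact sign test over animals gave p = 2.09e-05. It was -2.28 (permutation p = 0.133) without the 10 animals whose left library overlapped more with another animal. Lane means were below 0 in 7 of 9 lanes, from -10.2 to 8.91.

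The largest sites with no count at the other end held at most 17.6% of the counts of their library. At the left these were upstream of Sptlc1, which encodes a subunit of the enzyme that starts sphingolipid synthesis (5.69% of left counts, TAM+ 66), downstream of the ephrin ligand gene Efnb1 (5.64%, TAM+ 8) and in intron 1 of Dner, a Notch-like receptor of neurons (4.28%, TAM+ 16). A site in intron 2 of Dner in TAM+ 47 held 2.71%. The other left-only sites in the first 10 were near Gm10007 (3.52%, TAM+ 46), Gm5326 (2.75%, TAM- 11), Ppp1r12a (2.37%, TAM+ 46) and Vmn1r231 (1.99%, TAM+ 1), in Ppfia2 (2.91%, TAM+ 60) and at chr14:92709395 with no gene (3.47%, TAM- 18). Of the 10 largest left-only sites, 9 held JX counts within 100 bp in the same animal. The right-only sites began with 17.6% of right counts in TAM+ 44 at chr10:105481299, with no listed gene, where the right library held 64860 counts in all. Next were 11.7% upstream of 4921533I20Rik in TAM+ 47 and 3.77% in intron 1 of Iqsec1, an activator of ARF GTPases, in TAM+ 44. Right-only sites in Ipw (1.13%) and downstream of the kinase gene Prkcb (1.12%) were both in TAM- 44, as were those near 4932441B19Rik and D10Wsu102e. The rest were near Nap1l1 and at chr2:82640754 in TAM+ 44 and near Cpeb2 in TAM+ 46. These last sites held no JX count within 100 bp, while the other right-only sites named did, with 4 counts at Iqsec1.

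Genes were counted by the animals with a called site in or assigned to them. Of 2721 genes, 1287 were called from the left end in at least 1 animal and 1947 from the right. Of these, 513 were called from both ends, not necessarily in the same animal. From the left alone 774 were called, and from the right alone 1434. These gene counts rest in large part on few libraries. Of 3438 right-called sites, 582 were in TAM+ 59, 396 in TAM+ 67 and 294 in TAM- 37. Of 2331 left-called sites, 340 were in TAM+ 3 and 202 in TAM+ 46. The same site was called from both ends in 217 genes, but in 2 or more animals in 12 of them. Tested with an exact McNemar test per gene with Benjamini-Hochberg adjustment, 0 of 164 genes hit in at least 3 animals were called in more animals from the left and 0 from the right (0% each), and 0 had an unadjusted p under 0.05. An exact test needs at least 6 animals on 1 side alone for that, and 19 genes had 6 or more animals with 1 end alone. Adjustment over 164 genes asks for more, so the other tested genes could not have passed.

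En2, a homeobox gene of the hindbrain, led all counts. Its splice acceptor is a common part of SB gene-trap elements. It was called in 100 of 119 animals, in 80 from the left end, in 90 from the right, and with the same site from both in 65. Left alone it was called in 10 animals and right alone in 20 (exact McNemar test, p = 0.0987, adjusted p = 1). Its 284 called sites lay between chr5:28496384 and chr5:28496775, and 277 of them were at positions spread over animals. Left-called sites there were listed as OPPOSITE at 131 of 186 and right-called sites as SAME at 237 of 254, so of 156 both-end sites 49 had the same orientation. With spread positions left out, no En2 site was called from both ends. En2 held a median of 1.93% of left counts (up to 46.3%) and 5.78% of right counts (up to 57.8%) in those animals.

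Foxf2, a forkhead transcription factor gene, was called in 29 animals, in 19 from the left, 14 from the right and 3 at the same site from both. Its 37 sites lay within chr13:31719092-31719262, and 16 of them were at positions spread over animals. In exon 1 a Foxf2 site held 72.6% of left counts in TAM+ 72. Within 10 bp, another held 9.20% of right counts in TAM+ 22, the pair of libraries that overlapped above. That right library also had 9.2% overlap with the left library of TAM- 9, whose overlap with its own right library was 30.9%. In TAM+ 10 the gene held 7.66% of left and 8.97% of right counts at a spread position. Sfi1, a centrosome gene with sites on chromosome 11, was called in 3 animals from the left and 5 from the right, with 1 shared site in TAM+ 31 (0.365% and 3.70%). These 3 genes formed the list of loci that resemble the transposon or repeats, with 69 animal-gene pairs called from both ends and 3 after spread positions were left out.

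Genes listed as neighbours of the chromosome 10 donor array were called from either end in similar numbers. All 8 listed neighbours were called from both ends in some animal, with 96 gene-animal pairs from the left, 93 from the right and 8 with the same site from both. Of all 22005 genes with any left or right count, 5.85% were called from the left, 8.85% from the right and 0.986% at the same site. The list was chosen with earlier results of these data known, so nothing is read from its being called often. Otogl, an inner ear matrix gene, was called in 38 animals (26 left, 21 right, 1 with the same site). That site, in intron 17 in TAM+ 28, held 5.81% of left and 48.7% of right counts. Ppp1r12a, the targeting subunit of myosin phosphatase, was called in 35 animals (22 left, 24 right, 4 with the same site).

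The 5 both-end sites of Ppp1r12a varied in their balance between the ends. In TAM+ 18 a downstream site at chr10:107730147 held 6.63% of left and 11.4% of right counts. In TAM- 42 one at chr10:107738254 held 2.11% and 3.83%. TAM- 17 had upstream sites at chr10:107509595 (4.18% and 2.59%) and chr10:107512932 (3.31% and 0.748%). These 4 were listed as OPPOSITE at both ends. In TAM+ 66 a site in intron 1 held 1.11% of left and 57.7% of right counts, and its orientation was opposed between the ends. That is 1 site, and the unbalanced site in Utp6 in TAM- 34 (0.81% and 93.5%) had the same orientation at both.

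Nav3, which guides neurite growth, was called in 8 animals from the left and 13 from the right, with 1 same site in intron 33 in TAM+ 23 (14.8% and 37.3%). Syt1, the calcium sensor of synaptic vesicles, was called in 11 animals from each end, with 1 same site in TAM- 21 (6.70% and 9.67%). Pawr (10 left, 8 right, 1 same), Ppfia2 (8 and 7, 0 same), Lin7a (7 and 6, 0 same) and Ptprq (8 and 5, 0 same) had few same sites or none. Left-called sites with no right count were seen in 7 animals for Ppp1r12a, 6 for Otogl, 5 each for Syt1 and Pawr and 4 each for Nav3, Ppfia2 and Tmtc2. Right-called sites with no left count were seen in 7 animals for Otogl, 6 for Ppp1r12a, 5 for Ppfia2 and 4 each for Nav3 and Syt1. All genes with at least 4 such animals lie on chromosome 10, the donor chromosome of 90 animals. At 3 animals there were also genes elsewhere, such as Prkcb on chromosome 7 (right) and Dner on chromosome 1 (left). Acss3 was called in 3 animals from the left and 4 from the right, with no same site. Of the 4 listed neighbours of the chromosome 7 array, Rab6a (4 left, 6 right) and Fam168a (3 and 6) had no same site, Plekhb1 (4 and 5) had 1, and Odz4 was called in 3 animals from the left alone.

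Few genes had both-end sites in several animals. Of the listed neighbours of the donor arrays only Ppp1r12a did (4 animals). Enox1, a cell-surface oxidase gene, had a both-end site in each of its 3 animals. The shares were 0.941% left and 0.727% right in TAM- 26, 32.9% and 2.98% in TAM+ 49, and 0.392% and 1.10% in TAM+ 71. Thbs4, a matrix thrombospondin, had 2.41% and 7.18% in TAM+ 5 and 4.36% and 13.2% in TAM- 4. Pard3b, a cell polarity gene, had 20.1% and 50.1% in TAM+ 62 and 39.3% and 1.73% in TAM+ 34. The adhesion gene Clstn2 had 0.211% and 0.522% in TAM- 27 and 3.4% and 4.87% in TAM- 45. Rnf144b and Wdr27, and Grip1, Nt5dc3 and Chst11 on chromosome 10, had both-end sites in 2 animals each. The Nt5dc3 sites lay at 1 position, chr10:86289877, in TAM- 35 (6.30% and 32.2%) and TAM+ 5 (0.165% and 0.494%), both of lane 2. These genes were picked for their number of both-end sites, which is therefore no result about them.

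The genes with the lowest exact McNemar p-values did not pass adjustment in either direction (adjusted p = 1 for each). At the left end Tmtc2 was called in 5 animals against 1 at the right (exact p = 0.125), and Gli3, Eya4, Nkain2 and Odz4 in 3 against 0 (p = 0.25 each). At the right end Anks1b was called in 7 animals against 3, and Celf2, Cldn23, Reep3, Stxbp5l and Tpd52l1 in 4 against 0 (exact p = 0.125 each), while Gfra1 was called in 5 against 1 (exact p = 0.219). Some of these rested on 1 position. All 6 Gfra1 sites lay at chr19:58555475 and all 4 Cldn23 sites at chr8:36970947, both spread over animals and listed with opposed orientations at the ends. The Cldn23 sites were in TAM- 23, TAM+ 59, TAM+ 65 and TAM+ 67, each with over 100 called sites. For Tpd52l1, 3 of 4 sites lay at 1 spread position. Anks1b, a synaptic scaffold gene, had a both-end site in intron 3 in TAM+ 35 with 52.1% of left and 13% of right counts. The same position, chr10:90322128, held 0.107% of left and 0.896% of right counts in TAM+ 33, also of lane 5. There it was called from the right end alone, and TAM+ 33 is 1 of the 7 animals.

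Members of the SHH pathway list, which carries the signal that drives this tumour type, had a called site in 5 of 13 cases, 3 from the left end and 3 from the right, and 1 had the same site from both. Of all 22005 genes with any left or right count, 12.4% had a called site from either end, 5.85% from the left, 8.85% from the right and 0.986% the same site from both. Gene length is not held equal in such shares, and nothing is read from them for this list or those that follow. Gli3, a transcription factor that can repress SHH targets, was called from the left end in 3 animals. Its site in intron 3 at chr13:15669141 held 83.4% of left counts in TAM- 8, with 192 right counts (0.0115%) in the opposed orientation. The same position held 1.43% of left counts in TAM+ 69, also of lane 6, and a site downstream of Gli3 held 1.83% in TAM+ 41. Smo, the transmembrane transducer of the pathway, held 9.70% of left counts in TAM+ 60 with 3 right counts. Gli2, an activating factor of the pathway, was called from the right end in 2 animals, at 0.273% in TAM+ 59 and 0.215% in TAM+ 46. Hhip, which binds and restrains hedgehog ligands, had the both-end site (1.65% left and 0.607% right, TAM+ 41). Ptch1, the SHH receptor, was called once, in intron 10 at the right end with 0.184% in TAM+ 71, where the left end had 0.0490% in the same orientation. Of the list, 1 gene was hit in 3 animals and tested, and it did not pass.

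In the growth signalling list 6 of 14 genes had sites and 1 had a both-end site. Of all 22005 genes with any left or right count, 12.4% had a called site and 0.986% a both-end site. From the left end 5.85% were called and from the right 8.85%, and nothing is read from such shares for the lists here. Igf1r, a growth factor receptor, had a both-end site in intron 15 in TAM- 27 with 8.28% and 24.2%. Erbb4 was called in 2 animals from the left and 1 from the right, and Pdgfra in 1 each. In the chromatin list 11 of the 16 genes present in these libraries had sites (18 listed), 5 from the left and 8 from the right. Arid1a (1.29% and 4.89%, TAM+ 68) and Bcor (0.835% and 0.408%, TAM+ 30) had both-end sites. Smarca4 was called in 2 animals from the left, and Arid1b, Arid2 and Crebbp in 2 animals each from the right. For both Arid1b and Crebbp these were TAM+ 59 and TAM+ 67, with 582 and 396 right-called sites in all. For Arid2 they were TAM+ 44, with 129, and TAM- 47, with 12. In the granule neuron lineage list 6 of 13 had sites, with 11 gene-animal pairs from the left and 4 from the right, against 1690 and 2550 over all genes. The median of left minus right animals was 2 in its 3 tested genes. Nfia, a factor of granule neuron maturation, had the both-end site (0.275% and 0.556%, TAM+ 18), and Klf6 was called in 3 animals from the left and 1 from the right. Tcf4 was called in 2 from the left and 1 from the right, and Tcf12 in 2 from the left.

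The long synaptic gene list had all 16 members called from the right end and 7 from the left, with 32 gene-animal pairs against 12. Among its 6 tested genes the median of left minus right animals was -2, beside -1 over all 164 tested genes, and 0 passed. Pcdh15 was called in 3 animals from the left and 6 from the right, and Nrxn3 in 1 and 3. In the potassium channel family 17 of 94 genes had sites, 11 from the left and 9 from the right, with 14 gene-animal pairs against 13. Of all 22005 genes with any left or right count, 12.4% had a called site, 5.85% from the left and 8.85% from the right. Gene-animal pairs over all genes were 1690 from the left and 2550 from the right, and nothing is read from these shares for either list. Kcnip1 had a both-end site in TAM+ 54 (2.06% and 1.43%), as did Kcnk1 in TAM+ 7 (0.504% and 2.78%). Kcnc2 was called in 2 animals from the left and 1 from the right, Kcne3 in 2 from the left, and Kcnb2 had no called site from either end. None of the tested list members passed.

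By chromosome, the ends differed on 1 of 20 (5%), tested as the share of an animal's called sites. Chromosome 5 held 12.6% ± 11.7 of left-called and 17.8% ± 15.4 of right-called sites (n = 119, two-sided paired permutation test, adjusted p = 0.0002), with right higher in 69 animals and left in 28, and in 8 of 9 lanes. With spread positions left out, which removed nearly all En2 sites, chromosome 5 held 2.97% ± 4.87 and 3.4% ± 5.94 and the difference did not pass (permutation p = 0.492, adjusted p = 0.982). It also did not pass in the 90 animals with donor chromosome 10, with sites called at 0.1% of the highest, with positions merged within 100 bp, or with each position credited to 1 animal. Chromosome 13 held 13.1% ± 12.8 of left and 10.2% ± 10.7 of right sites (permutation test, adjusted p = 0.19). Chromosome 10 held 20.9% ± 19.6 and 20.1% ± 19.6 (permutation test, adjusted p = 0.978), and chromosome 7 held 9.92% ± 17.4 and 7.30% ± 11.4 (adjusted p = 0.438).

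With spread positions left out, the pooled share of sites called from both ends, which was not tested across chromosomes, ran from 2.33% of 215 sites on chromosome 6 to 9.59% of 146 on chromosome 12. On chromosome 5 it was 34.4% of 488 with all positions and 5.85% of 205 without spread ones. Within animals it was 10.5% ± 17.2 on the donor chromosome and 12.1% ± 13.1 elsewhere (n = 110, p = 0.429). Sites with no count at the other end made up 19.7% of chromosome 5 sites, 21.6% of chromosome 13 sites and 30% to 44% on the other chromosomes. In the 109 animals with at most 100 sites they made up 1.02% (chromosome 6) to 14.2% (chromosome 1).

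Of 6 features of gene position, 1 differed between the ends (16.7%). Left-called sites in or near genes were listed as SAME at 49% ± 19 and right-called sites at 56.6% ± 19.8 (n = 119, adjusted p = 0.0104), with right higher in 81 animals, left in 34, and the same direction in 8 of 9 lanes. With spread positions left out this was 51.8% ± 21.5 and 48.9% ± 21.7 (n = 118, p = 0.23), in the other direction and not past the threshold. The call was also lost without lane 6, with sites called at 5% of the highest, with positions merged within 100 bp, with donor chromosome 10 alone, or with each position credited to 1 animal. Introns held 52.5% ± 19.6 of left and 52.6% ± 18.4 of right sites (permutation test, adjusted p = 0.957). The shares in exons, upstream, downstream and without a gene had adjusted p-values from 0.518 to 0.957.

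No difference between tamoxifen-treated and untreated animals passed the test. The both-end share was 15.2% ± 14.4 in TAM+ (n = 72) and 16.3% ± 11.6 in TAM- (n = 47; two-sided permutation test, p = 0.663), and it was higher with tamoxifen in 3 of 9 lanes. With lane as a block the difference was -1.09 (112 animals of 1 lane, permutation within lanes, p = 0.647). Left minus right called sites averaged -10.6 ± 94.3 and -7.38 ± 46.9 (permutation p = 0.843). Sites with no count at the other end were 11.6% ± 20.3 and 6.78% ± 10.8 (permutation p = 0.141). Animals with donor chromosome 10 and 7 had both-end shares of 15.4% ± 14.4 and 16.4% ± 9.01 (permutation p = 0.741). All 8 comparisons of this kind had an adjusted p of 0.953.

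The JX libraries, made separately from the same DNA, held counts near both-end sites more often than near sites called from 1 end. Within 100 bp, 99.1% ± 7.55 of an animal's both-end sites and 88.5% ± 22.8 of its other called sites had a JX count (n = 102, adjusted p = 2.4e-05 over 12 comparisons), higher in 39 animals, lower in 1 and equal in 62. The difference was above 0 in 8 lanes and 0 in lane 3. With sites called at 5% of the highest the difference was 1.36 percentage points and did not pass (permutation p = 0.283). It was 35.9 with sites called at 0.1% and 6 without the 10 animals of over 100 sites (p = 1e-05 each in the permutation test). Where the larger share was over 10%, both kinds had JX counts at 100% (n = 77), from 1% to 10% they had 99.2% ± 6.30 and 97.7% ± 10.7 (adjusted p = 0.333), and under 1% they had 97.2% ± 14 and 85.1% ± 24.2 (n = 47, adjusted p = 0.00016). Sites seen only from the right end had a JX count at 46.8% ± 45.6 per animal (22 animals; 93 of 1193 sites pooled), and sites seen only from the left end at 78.4% ± 34.5 (52 animals; 342 of 698 pooled).

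The PB libraries followed the side of the SB end. Sites called from the left SB end alone had counts in the left PB library at 66% ± 25.6 and in the right PB library at 26.1% ± 23.8 (n = 116, adjusted p = 2.4e-05), with left higher in 102 animals and right in 2. Sites called from the right SB end alone had right PB counts at 58.2% ± 28.1 and left PB counts at 32.4% ± 26.1 (n = 115, adjusted p = 2.4e-05), with right higher in 87 animals and left in 8. The same side was higher on average in 9 of 9 lanes for either end, and likewise with at least 10 PB counts required (58.8% against 13% at the left, 48.2% against 21.6% at the right). At both-end sites the left PB library had counts at 78.9% ± 28.5 and the right at 72.1% ± 31.5. In the JX libraries the sides were closer in value. Sites called from the left SB end alone had left JX counts at 87.6% ± 22.9 and right ones at 86.2% ± 22.5 (n = 116, permutation test, adjusted p = 0.575). Those called from the right SB end alone had right JX counts at 87.8% ± 25.1 and left ones at 82.9% ± 27.0 (n = 115, permutation test, adjusted p = 0.00118). These comparisons of sides were chosen after earlier values were seen, and what makes the sides differ was not tested.

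**Figure D5:**
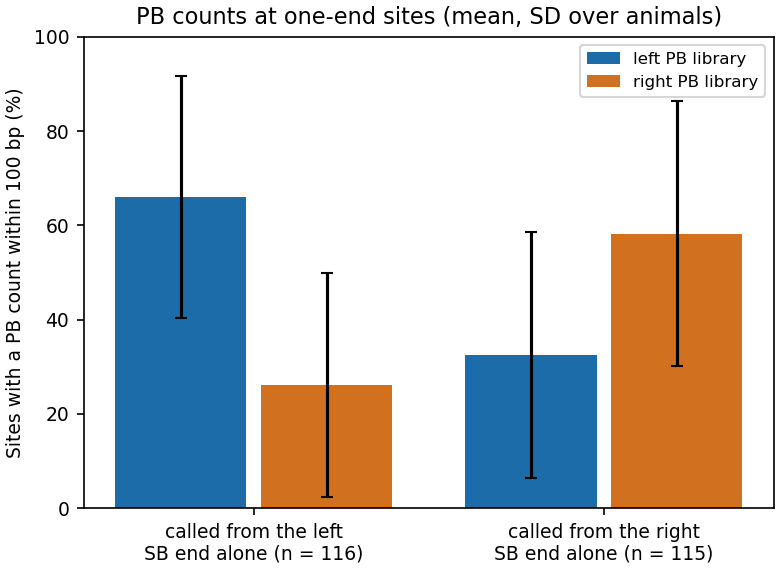
Percent of sites called from 1 SB end alone (y axis) that had a count within 100 bp in the left (blue) or right (orange) PB library of the same animal, as mean and SD over animals. The PB library of the same side is higher in both groups (66% against 26.1%, and 58.2% against 32.4%).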

How the data were processed

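Genomic DNA was sheared, joined to splinkerette adaptors, cut with BamHI and amplified from the SB part (IR), the PB part or their boundary (JX), per the labels' protocols. The deposited values are raw counts, 1 per position and library. Positions are on mm9 according to the submitters' processing notes. For the aligner, counting rule, annotation and filters, the sources used here give nothing. Gene, gene part and orientation are those of the authors' deposited table, which gives no strand.

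Of 120 animals chosen, 1 with conflicting arms in the sheet was left out, and 1 whose ID had 2 spellings was joined. Sites were merged within 10 bp and called at 10 counts and 1% of the highest site. Means were compared with two-sided permutation tests (100000 resamples), within animals by sign flips, and genes with exact McNemar tests, both checked on simulated data, with Benjamini-Hochberg adjustment and a threshold of 0.05 (Python 3.11.15, numpy 2.4.6, scipy 1.17.1, pandas 2.3.3). PCR reads without molecular identifiers are not independent molecules. Named were the 12 genes hit in most animals, the 8 with the lowest p per end, the 8 most often seen from 1 end without the other, the 10 largest sites of each kind, up to 4 genes of each of 9 lists hit in at least 2 animals, and Ptch1 and Kcnb2. Some genes this picks are not reported here. Other sites and genes, such as Dhx40, Pdpk1, Enox1, Thbs4, Pard3b, Clstn2, Smo, Hhip, Arid1a and Bcor, were named after their values were seen. Members and lists were chosen with earlier results of these data known. Alternatives varied the call, merging distance, depth, lanes, donor, arms and libraries that stood apart. Of 2721 gene symbols with a called site, 2457 were current in the given name table.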

Additional observations from a re-analysis of the deposited data

Results flagged for a closer look

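Lanes were compared by the median of their animals, and 2 stood apart by the gap to the nearest lane (5 measures over 9 lanes, of which chance flags about 1 in 20). Lane 8 had a median of 25.5 left-called sites per animal, against 4.5 to 13.5 in the other lanes, while its right libraries had a median of 11. Lane 1 had a median of 13.1% of sites with no count at the other end, against 0% to 4.82% in the other lanes. Pairing the ends within 150 bp, which joins the 117 bp pairs, left this lane's median at 12.5%.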

How the results depend on the processing

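Of 275 recomputed values, 232 kept their direction and side of the threshold (counts within 1.5 times, untested values within 1 SD), among them the 25 for genes by end (0 genes each) and the 24 for agreement of shares (median rho -0.391 to -0.207). The causes of the other changes were not tested unless the setting itself shows them. In the main setting 19 of 164 tested genes had 6 or more animals with 1 end alone. For the rest a count of 0 genes was fixed in advance. The left minus right number of called sites was, by permutation test, 32.8 (p = 0.464) with sites called at 0.1% of the highest, 1.72 (p = 0.118) without animals of over 100 sites, and -14.1 (p = 0.0467) without the animals whose left library overlapped more with another animal. Over lanes left out in turn it ran from -14.1 to -5.04. Its median in an exact sign test over animals was 0 (p = 0.631). The difference in highest share was -0.0898 points without spread positions, -1.35 without animals of over 100 sites, and -0.97 to 1.84 over lanes left out in turn (below 0 without lane 6). The share of an animal's called sites taken as seen from both ends was 90.3% where any count at the other end sufficed. It was 78% where 10 counts did, by construction. With spread positions left out, the listed orientation agreed at 45.8% of 2434 sites with a listed gene and counts at both ends. Whether such counts come from the same insertion was not tested. The left-against-right difference in sites with counts at the other end no longer passed at a 5% call (-0.748), with thinning (-2.57), without spread positions (-3.46), with donor 10 (-3.37) or donor 7 alone (-2.41), without the animals overlapping another (-2.28), without the joined animal TAM+ 61 (-2.63), and without lane 1 (-1.92), 2 (-2.91), 3 (-3.15), 4 (-2.73) or 5 (-3.15), with a range of -4.32 to -1.92 over all lanes left out in turn. It was larger at a 0.1% call (-12.8) and without animals of over 100 sites (-4.94), and an exact sign test gave p = 2.09e-05. The chromosome count was 0 at a 0.1% call, with 100 bp merging, without spread positions, with donor 10 alone and with each position credited to 1 animal. The count of gene features was 0 at a 5% call, with 100 bp merging, without spread positions, without lane 6, with donor 10 alone and with that crediting, and 2 with donor 7 alone, and it ran from 0 to 1 over lanes left out. The TAM+ minus TAM- both-end share was 1.27 at a 5% call, 0.154 without animals of several lanes, and -2.44 to 0.958 over lanes left out (above 0 without lane 4). The same contrast of left minus right sites was 60.6 at a 0.1% call, 17.3 without spread positions, 15.3 with donor 7 alone, and -11.2 to 4.61 over lanes left out (4.61 without lane 3, 0.103 without lane 4 and 3.30 without lane 6). The JX difference was 1.36 at a 5% call (permutation p = 0.283), 35.9 at a 0.1% call and 6 without animals of over 100 sites. Pairing within 150 bp, the crediting, the lane block, TAM+ 61 left out and both sets of animals left out were chosen after seeing the data. With lane as a replicate block in the 112 animals of 1 lane, the TAM+ minus TAM- difference was -1.09 in both-end share (permutation p = 0.647) and -8.46 in left minus right sites (p = 0.582). Libraries of 145506 left and 150493 right counts limit what a missing count shows in TAM+ 46.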
